A study of Mus musculus with 2 samples.

Results

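The genes described are 40 genes of fatty acid oxidation and ketone body metabolism, chosen by symbol from 55536 annotated genes. Each symbol led to 1 gene identifier through the transcript names in the deposited tables. RNA came from adrenal glands of male mice of the strain B6CASTF1/J, a first-generation cross of C57BL/6 with the wild-derived CAST strain, aged 25 days. There was 1 group of 2 libraries of total RNA, replicate 2 and replicate 1, each from 300 ng of RNA with ERCC spike-ins added. No treatment or mutation was given. By its biosample label replicate 2 is from animal 4 and replicate 1 from animal 3, yet both library labels give animal 3, and the donor label is shared. Differences between the libraries may therefore be technical. With 1 library on each side no test is possible, so ratios carry counting intervals only.

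Long-chain fatty acids are activated to acyl-CoA, carried into mitochondria as carnitine esters, and shortened there by a repeating cycle of dehydrogenation, hydration, a further dehydrogenation and thiolysis. Peroxisomes run a parallel cycle with their own enzymes for very long, branched and bile acid side chains and pass shortened chains on. Liver turns the products into ketone bodies, which other tissues burn. Steroid-producing cells of the adrenal cortex are rich in mitochondria and lipid droplets, and brown fat, which lies next to the gland, is a tissue of high fatty acid oxidation.

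The libraries stood apart in markers of other tissues. All 7 adrenal cortex markers had at least 1 TPM (a level scaled by transcript length and depth) in both libraries, as did all 7 chromaffin markers, and the cortex markers summed to 6802 TPM (replicate 2) and 12342 TPM (replicate 1). The 8 liver markers, led by Alb, summed to 19955 TPM (replicate 2) and 26.9 TPM (replicate 1), each at least 10-fold higher in replicate 2. The 8 skeletal muscle markers summed to 7.09 TPM (replicate 2) and 1465 TPM (replicate 1), each at least 10-fold higher in replicate 1, with Tnni2 at 0 in replicate 2. The 5 brown adipocyte markers were present in both libraries, at 935 TPM (replicate 2) and 1365 TPM (replicate 1), as were the 7 white adipocyte markers, at 1955 TPM (replicate 2) and 2335 TPM (replicate 1). The defining brown fat gene Ucp1 was at 219 TPM (replicate 2) and 391 TPM (replicate 1). Their part in the results that follow was not tested. Fewer cells of a type and less RNA per cell cannot be told apart in such samples.

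Most enzymes of the peroxisomal matrix end in a short targeting signal, and Pex5 encodes the receptor that reads it. The coding ends of 8 peroxisomal members are shown because most genes that differed between the libraries were peroxisomal, with the mitochondrial Acadm and Hadha for comparison. Each line holds the last 30 coding bases, stop codon included, of the most abundant complete coding transcript of the gene, from the GENCODE M21 transcripts. The capitals mark the last 3 codons before the stop codon.
Acox2: ctgatgcaaagctggaaaCCCAAGCTGtga
Acox3: gtagccgacaggctaaagTCCCAGCTGtag
Ehhadh: ttggcaggaccccatagcAGCAAACTGtga
Acaa1a: gctgcggtctttgaatacCCTGGGAACtga
Acaa1b: gctgcggtctttgaatacCCTGGGAACtga
Scp2: cagcttcagccgggcaaaGCTAAGCTGtga
Crot: atacagctgatgaacaccGCTCATCTTtag
Eci2: agcttcgtctccagaaaaCCAAAGCTGtga
Acadm: cgtgagcacattgaaaagTATAAAAATtaa
Hadha: aacaactctagcaagaagTTCTACCAGtga
The peroxisomal thiolase genes Acaa1a and Acaa1b shared 1 ending. As background, this thiolase carries its signal near the start of the protein.

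The same thiolase genes are near-identical copies, which bears on how well reads can be assigned to each. Their coding sequences were 96.5% identical over 1275 bases, with a longest identical run of 327 bases. In the first 60 coding bases shown here, 1 base differed and is in capitals.
Acaa1a: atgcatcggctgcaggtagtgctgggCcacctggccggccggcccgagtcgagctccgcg
Acaa1b: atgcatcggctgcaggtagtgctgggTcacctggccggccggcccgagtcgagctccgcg
The acyl-CoA thioesterase copies Acot1 and Acot2 were 95.5% identical over 1239 aligned coding bases. The carnitine palmitoyltransferase pair Cpt1a and Cpt1b was 67.4% identical over 2299 bases, with no identical run above 20 bases. Reads of such copies can be split between them, so the levels of the thiolase and thioesterase copies are uncertain. The deposited posterior SD, the quantifier's own uncertainty of a count, was 19.4 counts for Acaa1b in replicate 2, where the gene had 3865 expected counts, and 9.96 counts in replicate 1, where it had 335.

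Of the 40 genes, 39 had at least 1 TPM in both libraries, and the exception was Acox2 in replicate 1. Together they held 3967 TPM in replicate 2 and 3718 TPM in replicate 1, a mean of 3843 ± 176 TPM (SD, n = 2). As a share of nuclear protein-coding TPM that was 1.12% in replicate 2 and 1.13% in replicate 1. The sum was thus similar in the libraries. Levels depend on the quantification: TPM in the second was higher, by a median over the 40 genes of 1.66-fold in replicate 2 and 1.74-fold in replicate 1, and by more than 1.5-fold for 30 genes in replicate 2 and 31 in replicate 1. That rise was not particular to these genes. Nuclear protein-coding genes together held 35.5% (replicate 2) and 32.8% (replicate 1) of TPM in the first quantification. In the second they held 63.7% (replicate 2) and 61.9% (replicate 1). The highest gene in replicate 2 was Scp2, and in replicate 1 it was Hadhb. The lowest was Cpt1c in replicate 2 and Acox2 in replicate 1.

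**Figure D1:**
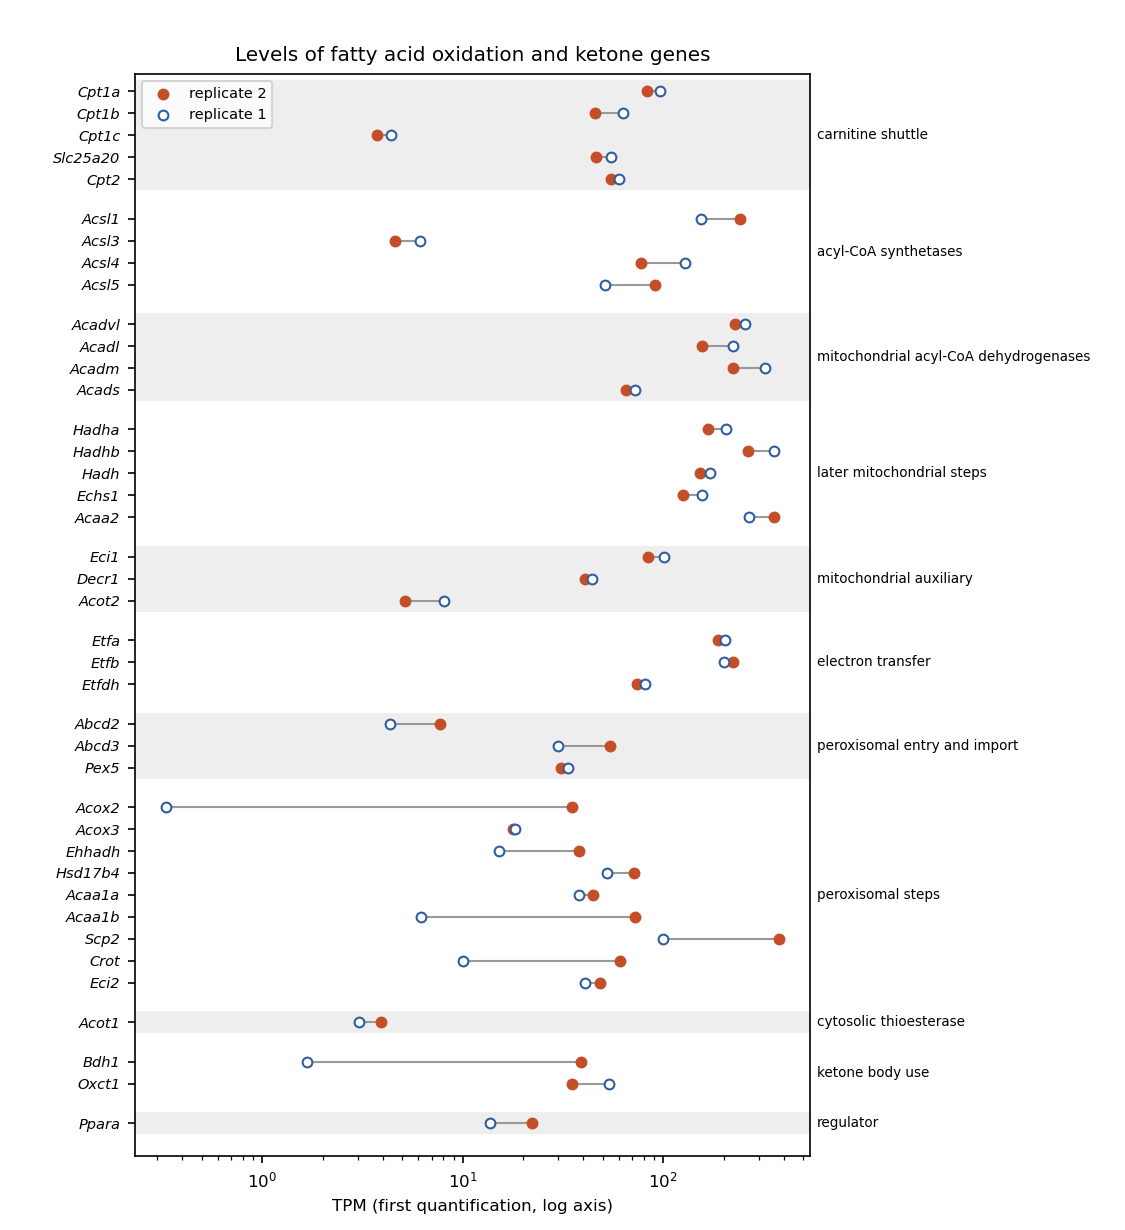
Level of each of the 40 genes in TPM on a log axis, grouped by role, with replicate 2 as filled and replicate 1 as open circles. Most mitochondrial genes lie close together in the 2 libraries, while Acox2, Acaa1b, Scp2, Crot and Bdh1 lie far apart, with replicate 2 higher.

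Entry into the mitochondrion is controlled at the carnitine ester. Cpt1a, which makes the carnitine ester at the outer membrane in liver and many other tissues (ENSMUSG00000024900.5, chromosome 19, 3322334 to 3385733, mm10), was at 83.3 TPM (replicate 2) and 96.7 TPM (replicate 1). Cpt1b, the isoform of muscle, heart and brown fat (ENSMUSG00000078937.8, chromosome 15, 89416405 to 89425863), was at 45.9 TPM (replicate 2) and 63.1 TPM (replicate 1). Cpt1c, the isoform of neurons, was at 3.75 TPM (replicate 2) and 4.39 TPM (replicate 1). The order Cpt1a, Cpt1b, Cpt1c was the same in both libraries. The log2 ratio of Cpt1a over Cpt1b was 0.86 in replicate 2 and 0.62 in replicate 1, a mean of 0.74 ± 0.17 (SD, n = 2), and it was 1.22 in a second, separate quantification of the same reads. Cpt1a over Cpt1c was 4.47 in replicate 2 and 4.46 in replicate 1. Exons of Cpt1b share 2744 bases on the same strand with the annotated gene Gm44502, which was at 0 TPM (replicate 2) and 0.77 TPM (replicate 1).

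Library ratios are given as log2 of scaled counts, replicate 2 over replicate 1, with scaling by the TMM method, which places the median gene near 0. Cpt1a was at -0.04 (95% counting interval -0.08 to 0.00) and Cpt1b at -0.39 (95% counting interval -0.45 to -0.32). All 5 shuttle genes lay within 1.5-fold with TMM, but Cpt1b passed it under the other scalings, at -0.62 (total counts) and -0.74 (spike-in totals). In TPM, all 8 skeletal muscle markers and 4 of 5 brown adipocyte markers were lower in replicate 2, as Cpt1b was. The brown fat gene Elovl3 was higher there, at 35.8 TPM (replicate 2) and 6.33 TPM (replicate 1). Lower values were not particular to these 2 tissues. Higher in replicate 2 were 0 of 7 adrenal cortex, 1 of 7 chromaffin and 3 of 7 white adipocyte markers, against 8 of 8 liver markers. The part of any of these tissues in the Cpt1b ratio was not tested. Slc25a20, the carrier of carnitine esters across the inner membrane, was at 46.3 TPM (replicate 2) and 55.2 TPM (replicate 1), and Cpt2, which restores the acyl-CoA inside, was at 54.9 TPM (replicate 2) and 60.2 TPM (replicate 1). The library ratios of this pair were -0.03 and 0.07.

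The acyl-CoA synthetases, which activate fatty acids before either route, differed more. Acsl1, the main form of liver and fat, was at 242 TPM (replicate 2) and 155 TPM (replicate 1), a library ratio of 0.83 (95% counting interval 0.80 to 0.85). Acsl4, which prefers arachidonic acid and is known in steroid-producing cells, was at 77.6 TPM (replicate 2) and 129 TPM (replicate 1), a ratio of -0.51 (95% counting interval -0.54 to -0.48). This pair differed in opposite directions under every scaling used. Within a library the log2 ratio of Acsl1 over Acsl4 was 1.64 in replicate 2 and 0.27 in replicate 1. Acsl5 was at 90.7 TPM (replicate 2) and 51.4 TPM (replicate 1), a library ratio of 0.85. Acsl3 was far lower, at 4.6 TPM (replicate 2) and 6.15 TPM (replicate 1), with a ratio of -0.23. None of the 4 differed by 2-fold.

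The mitochondrial cycle was highly expressed throughout. Its 9 core genes summed to 1742 TPM in replicate 2 and 2036 TPM in replicate 1. Of the acyl-CoA dehydrogenases, which take the first step at different chain lengths, the very long chain form Acadvl was at 228 TPM (replicate 2) and 256 TPM (replicate 1). The long chain form Acadl was at 157 TPM (replicate 2) and 224 TPM (replicate 1), and the medium chain form Acadm at 223 TPM (replicate 2) and 323 TPM (replicate 1). The short chain form Acads was lowest, at 65.0 TPM (replicate 2) and 72.2 TPM (replicate 1). Acads thus lay below the other 3 in both libraries. Acadm over Acads was 1.78 in replicate 2 and 2.16 in replicate 1 on the log2 scale. Library ratios were -0.28 (95% counting interval -0.32 to -0.24) for Acadl and -0.27 (95% counting interval -0.31 to -0.24) for Acadm, against 0.07 for Acadvl and 0.07 for Acads.

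Hadha and Hadhb encode the subunits of the trifunctional protein, which carries out the last 3 steps on long chains. They lie head to head on chromosome 5, with the starts of the genes 86 bases apart. Hadha was at 167 TPM (replicate 2) and 206 TPM (replicate 1), and Hadhb at 266 TPM (replicate 2) and 359 TPM (replicate 1). In TPM Hadhb was higher in both libraries, with a log2 ratio of Hadha over Hadhb of -0.67 in replicate 2 and -0.80 in replicate 1. In the second quantification it was -1.13 (replicate 2) and -1.27 (replicate 1). The retained-intron transcript Hadhb-208 held 27.85% (replicate 2) and 28.3% (replicate 1) of Hadhb TPM in the first quantification. In the second it held 54.3% (replicate 2) and 55.3% (replicate 1). In expected counts, which are not scaled by length, Hadha was the higher gene. It had 15267 against 13632 in replicate 2 and 19433 against 18438 in replicate 1. Library ratios of Hadha and Hadhb were -0.11 and -0.20. The promoter window of Hadhb, 250 bases before to 50 after the start (RefSeq, GRCm38.p6), is shown because 228 of its bases also lie in the window of Hadha on the other strand. The capitals mark GGGCGG, the GC box, on either strand.
Hadhb, chr5:30155003-30155302, plus strand: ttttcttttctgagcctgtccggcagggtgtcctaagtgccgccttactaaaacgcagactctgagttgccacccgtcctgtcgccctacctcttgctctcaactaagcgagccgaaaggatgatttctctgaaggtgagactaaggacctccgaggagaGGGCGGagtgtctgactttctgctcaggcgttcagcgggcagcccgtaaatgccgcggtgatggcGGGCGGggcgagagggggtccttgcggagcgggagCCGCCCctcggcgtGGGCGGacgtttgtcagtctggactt
No TATAAA was found in this window.

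For shorter chains the steps are separate enzymes. Echs1, the enoyl-CoA hydratase, was at 126 TPM (replicate 2) and 157 TPM (replicate 1). Hadh, the hydroxyacyl-CoA dehydrogenase, was at 152 TPM (replicate 2) and 170.3 TPM (replicate 1). Both had library ratios near 0, at -0.08 and 0.06. Acaa2, the mitochondrial thiolase, was at 359 TPM (replicate 2) and 269 TPM (replicate 1), a ratio of 0.66 (95% counting interval 0.62 to 0.69). It was the only one of the 9 core genes with a higher TPM in replicate 2. With TMM it alone of the 9 passed 1.5-fold. With total counts it was at 0.42 and none of the 9 passed, and with spike-in totals it was at 0.30, while Acadl at -0.64 and Acadm at -0.63 passed in the other direction.

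Auxiliary and electron-transfer genes completed the mitochondrial group. Eci1, the isomerase for unsaturated chains, was at 84.1 TPM (replicate 2) and 101 TPM (replicate 1), and Decr1, the dienoyl-CoA reductase, at 40.7 TPM (replicate 2) and 43.9 TPM (replicate 1). Acot2, the mitochondrial thioesterase, was much lower at 5.16 TPM (replicate 2) and 8.10 TPM (replicate 1), and its cytosolic copy Acot1 was at 3.92 TPM (replicate 2) and 3.03 TPM (replicate 1). Acot2 over Acot1 was 0.40 in replicate 2 and 1.42 in replicate 1 on the log2 scale, and -0.19 (replicate 2) and 1.06 (replicate 1) in the second quantification, so their order in replicate 2 depended on the quantification. Their library ratios were -0.42 for Acot2 and 0.52 for Acot1, against 0.00 for Eci1 and 0.10 for Decr1. Etfa and Etfb encode the subunits of the flavoprotein that takes electrons from the acyl-CoA dehydrogenases. They were at 187 TPM (replicate 2) and 204 TPM (replicate 1) and at 222 TPM (replicate 2) and 201 TPM (replicate 1), within 1.5-fold of each other in both libraries. Etfdh, which hands the electrons to ubiquinone, was at 74.0 TPM (replicate 2) and 81.6 TPM (replicate 1). Library ratios of these 3 were 0.11, 0.39 and 0.08.

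Of the 8 genes at least 2-fold apart, 7 were peroxisomal. Abcd3 and Abcd2 encode transporters that bring fatty acids into the peroxisome. Abcd3 was at 54.3 TPM (replicate 2) and 29.99 TPM (replicate 1), and Abcd2 at 7.67 TPM (replicate 2) and 4.34 TPM (replicate 1). Abcd3 was several times higher than Abcd2 in both, with a log2 ratio of 2.82 in replicate 2 and 2.79 in replicate 1. Their library ratios were 1.10 (95% counting interval 1.03 to 1.16) and 1.05 (95% counting interval 0.90 to 1.19), just past 2-fold, and were short of it when total counts, at 0.86 and 0.82, or spike-in totals, at 0.74 and 0.69, set the scale. Pex5, the import receptor, was at 31.0 TPM (replicate 2) and 33.6 TPM (replicate 1), a ratio of 0.09.

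The first peroxisomal step is an oxidase that makes hydrogen peroxide. Acox2, the oxidase of bile acid intermediates and branched chains (ENSMUSG00000021751.13, chromosome 14, 8225511 to 8259353), had 2486 expected counts in replicate 2 and 8 in replicate 1. That was 34.9 TPM (replicate 2) and 0.33 TPM (replicate 1) and a library ratio of 8.52 (95% counting interval 7.54 to 9.73). Acox3, the other branched-chain oxidase, was at 17.9 TPM (replicate 2) and 18.3 TPM (replicate 1), a ratio of 0.11. So 1 oxidase was far higher in replicate 2, and the other was nearly level. Acox2 has more than 1 promoter window in the RefSeq table. The one farther upstream is shown because PPARs are known to drive peroxisomal oxidation genes in rodent liver, and it holds a match to the pattern they bind. That pattern is a direct repeat, GGNCA, any base, and AGGNCA, and the capitals mark it.
Acox2, chr14:8258970-8259269, minus strand: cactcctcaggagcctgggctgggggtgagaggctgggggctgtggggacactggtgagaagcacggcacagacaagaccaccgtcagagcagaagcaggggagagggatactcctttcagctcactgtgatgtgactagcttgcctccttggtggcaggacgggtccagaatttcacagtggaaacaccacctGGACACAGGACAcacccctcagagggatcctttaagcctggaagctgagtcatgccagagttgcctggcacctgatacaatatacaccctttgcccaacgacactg
A match in the sequence does not show binding. Over all 32851 promoter windows 0.801% held the pattern on either strand. Among 41 windows of the members 2 held it, 4.88%, both of Acox2 and with the same match, so the window was picked for it. The window of Ehhadh, a known PPAR alpha target, held none. Whether PPARs act on Acox2 here was not tested.

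The middle steps are joined in multifunctional enzymes. Ehhadh, the L-specific enzyme and a well known PPAR alpha target in rodent liver (ENSMUSG00000022853.7, chromosome 16, 21761287 to 21787807), was at 38.0 TPM (replicate 2) and 15.3 TPM (replicate 1), a library ratio of 1.55 (95% counting interval 1.46 to 1.63). Hsd17b4, the D-specific enzyme, was higher in level and closer between libraries, at 71.7 TPM (replicate 2) and 52.6 TPM (replicate 1), a ratio of 0.67 (95% counting interval 0.62 to 0.73). Eci2, an isomerase found in peroxisomes and mitochondria, was at 48.5 TPM (replicate 2) and 40.9 TPM (replicate 1), a ratio of 0.57.

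Thiolysis ends the cycle. Acaa1a was at 44.5 TPM (replicate 2) and 37.9 TPM (replicate 1), and its copy Acaa1b (ENSMUSG00000010651.4, chromosome 9, 119148023 to 119157093) at 72.3 TPM (replicate 2) and 6.23 TPM (replicate 1). Their library ratios were 0.44 (95% counting interval 0.36 to 0.52) and 3.77 (95% counting interval 3.61 to 3.93). Acaa1a was therefore the main form in replicate 1 and Acaa1b in replicate 2, with log2 ratios of Acaa1a over Acaa1b of -0.70 in replicate 2 and 2.61 in replicate 1. In the second quantification these were -0.05 (replicate 2) and 3.14 (replicate 1), so the copies were nearly level in replicate 2 there. Acaa1b is known in mice as a liver-enriched copy.

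Scp2 gives a thiolase for branched chains, sterol carrier protein x, and from an inner promoter a small lipid carrier, sterol carrier protein 2, which is also abundant in steroid-producing tissue. It was at 379.7 TPM (replicate 2) and 99.9 TPM (replicate 1) (ENSMUSG00000028603.15, chromosome 4, 108043839 to 108144998), and its library ratio in counts was 2.76 (95% counting interval 2.72 to 2.81). Counts are not scaled by length, and the shares of the long and short transcripts, of 2640 and 772 bases, differed between the libraries. The count ratio thus mixes level with transcript length, and the TPM values lie closer together than it does. The long transcript Scp2-201 had 234 TPM in replicate 2 and 28.2 TPM in replicate 1, or 61.7% (replicate 2) and 28.2% (replicate 1) of the gene. The short coding transcript Scp2-202 had 122 TPM (replicate 2) and 41.7 TPM (replicate 1), so the long form led in replicate 2 and the short one in replicate 1. Scp2-203, annotated as a processed transcript, had 17.2 TPM (replicate 2) and 29.7 TPM (replicate 1), so it too lay above the long form in replicate 1. The second quantification gave Scp2-201 311 TPM (replicate 2) and 43.4 TPM (replicate 1) but almost nothing to Scp2-202. There Scp2-206, annotated as a processed transcript, had 258 TPM (replicate 2) and 98.9 TPM (replicate 1). The long form was thus higher in replicate 2 in both quantifications, and the level of the short form was not settled by them.

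Crot, which makes carnitine esters of shortened chains for export from the peroxisome (ENSMUSG00000003623.4, chromosome 5, 8966033 to 8997324), was at 61.1 TPM (replicate 2) and 10.04 TPM (replicate 1), a library ratio of 2.87 (95% counting interval 2.77 to 2.97). Its promoter window is shown as an example of the GC-rich kind without a TATA box, with CCAAT and GGGCGG, on either strand, in capitals.
Crot, chr5:8997097-8997396, minus strand: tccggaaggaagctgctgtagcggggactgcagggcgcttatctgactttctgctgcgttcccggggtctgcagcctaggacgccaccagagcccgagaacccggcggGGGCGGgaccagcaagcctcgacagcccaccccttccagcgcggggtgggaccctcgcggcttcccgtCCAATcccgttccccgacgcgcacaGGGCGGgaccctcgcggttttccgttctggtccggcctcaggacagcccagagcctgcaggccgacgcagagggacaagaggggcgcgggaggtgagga
It was 69.7% GC, against a median of 52.7% over all windows. RefSeq windows were matched for 35 of the 40 genes, with 41 windows, and none for Cpt1b, Acaa2, Hsd17b4, Abcd2 and Decr1. GGGCGG was in 27 of these, 65.9%, against 35.7% of all windows. The member windows were also richer in GC, with a median of 60.3%, and the part of this in the motif shares was not tested. CCAAT was in 19, 46.3%, against 37.4%. TATAAA was in 0 of 41, against 13.6% of all windows, and CAAGGTCA, the element that Nr5a1, the steroidogenic factor, and related receptors bind, was in 0, against 1.56%. For an element this rare, 41 windows are too few to show a difference.

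Calls were counted by compartment and set against all genes. At least 2-fold higher in replicate 2 were 8 of 40, or 20%, against a background of 10.2% of 19801 annotated genes with at least 10 counts. They were Acox2, Bdh1, Acaa1b, Crot, Scp2, Ehhadh, Abcd3 and Abcd2. At least 2-fold lower were 0 of 40, against 3.93% of all genes. Of the 12 peroxisomal genes 7 passed 2-fold upward, and of the 20 genes of the mitochondrial enzymes and the carnitine shuttle 0 did. The median log2 ratio was 1.07 for the peroxisomal genes and -0.01 for the mitochondrial ones, against -0.01 for all genes tested. Among genes with a mean of at least 10 TPM, the background was 8.14% higher and 0.857% lower. All 12 peroxisomal ratios were above 0 with TMM, though Acox3 and Pex5 were below 0 with total counts or spike-in totals, which move the median of all genes to -0.24 and -0.36. With a 1.5-fold limit and TMM 13 of 40 were higher (background 15.4%) and 0 lower (8.27%). At that limit the 1-sided split depended on the scaling, since 10 were higher (12.2%) and 4 lower (15.5%) with total counts, and 8 higher (10.7%) and 7 lower (24.2%) with spike-in totals. With total counts 6 were 2-fold higher (8.62%) and 0 lower (5.66%), with spike-in totals 6 (7.88%) and 0 (7.29%), and in the second quantification 8 (9.95%) and 0 (3.8%). With a minimum of 1 count, 8 were higher (10.6%) and 0 lower (4.91%), and with a minimum of 50, 8 (8.43%) and 0 (1.83%). Replicate 2 was also the library with the liver markers, at 19955 TPM against 26.9 TPM in replicate 1, and how much of the difference these account for was not tested.

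**Figure D2:**
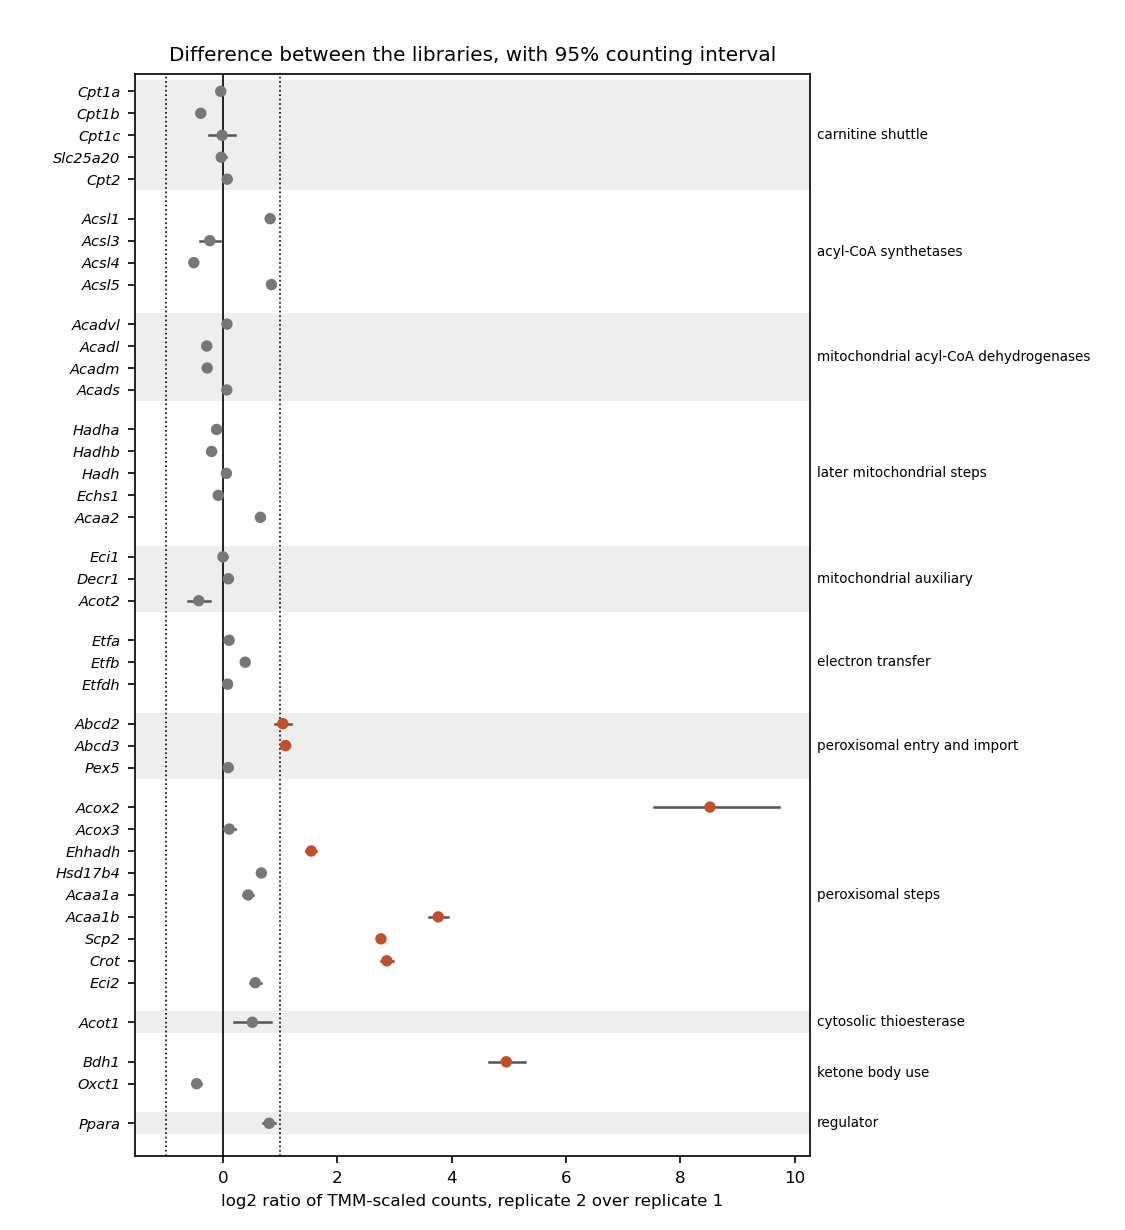
Library ratio of each gene as log2 of TMM-scaled counts, replicate 2 over replicate 1, with bars for the 95% exact counting interval, which covers counting error only. Dotted lines mark 2-fold. The 8 coloured points past the right line are 7 peroxisomal genes and Bdh1, and no gene passes the left line.

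The balance of the cycles was compared within each library. The 9 mitochondrial core genes exceeded the 7 peroxisomal core genes in summed TPM by 2.64-fold in replicate 2 and 8.83-fold in replicate 1. The log2 ratio was 2.27 ± 1.23 (SD, n = 2). The direction was shared by both libraries and the size was not, at 1.40 in replicate 2 and 3.14 in replicate 1. The peroxisomal sum was 659 TPM in replicate 2 and 231 TPM in replicate 1. Scp2 was the largest part of it in both libraries, at 379.7 TPM (replicate 2) and 99.9 TPM (replicate 1). This value takes all transcripts of Scp2, the short lipid carrier form included. The long transcript Scp2-201 held 234 TPM (replicate 2) and 28.2 TPM (replicate 1) of it. The peroxisomal sum therefore overstates the thiolase part, and more so in replicate 1. In replicate 1, the library with few liver transcripts, the peroxisomal genes ran from Scp2 at 99.9 TPM through Hsd17b4 at 52.6 and Eci2 at 40.9 TPM to Abcd2 at 4.34 and Acox2 at 0.33 TPM.

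**Figure D3:**
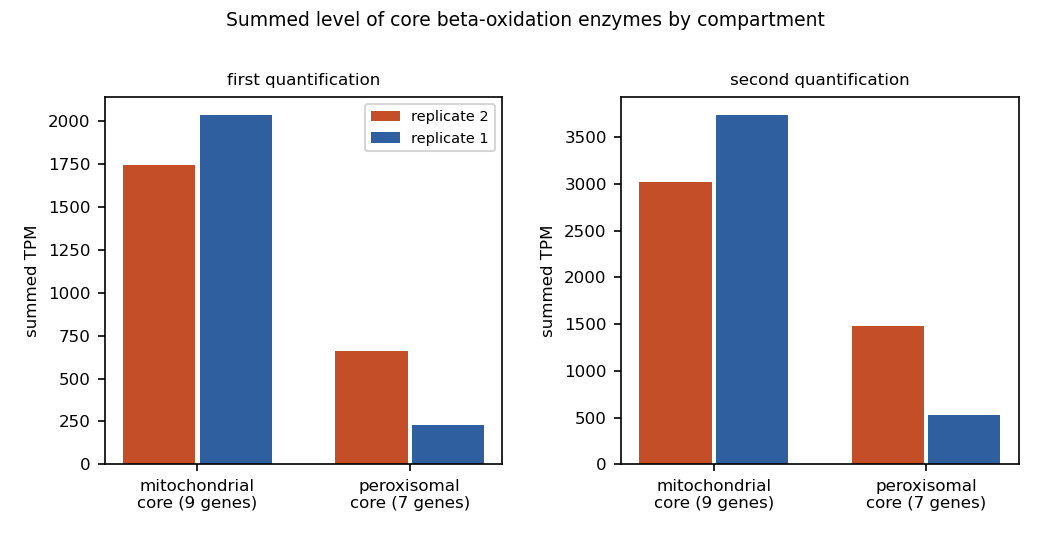
Summed TPM of 9 mitochondrial and 7 peroxisomal core genes of beta-oxidation in each library, in the first quantification on the left and the second on the right. Mitochondrial sums are above peroxisomal sums in every case, and the peroxisomal sum is higher in replicate 2 than in replicate 1 in both.

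The ketone body genes differed in opposite directions. Bdh1, which interconverts acetoacetate and 3-hydroxybutyrate and is abundant in liver (ENSMUSG00000046598.15, chromosome 16, 31422280 to 31458901), had 2290 expected counts in replicate 2 and 87 in replicate 1. That was 38.7 TPM (replicate 2) and 1.67 TPM (replicate 1) and a library ratio of 4.96 (95% counting interval 4.65 to 5.28). Oxct1, which activates acetoacetate for burning and is known to be absent from hepatocytes (ENSMUSG00000022186.14, chromosome 15, 4026383 to 4155344), was at 35.2 TPM (replicate 2) and 53.5 TPM (replicate 1), a ratio of -0.46 (95% counting interval -0.53 to -0.39). Oxct1 over Bdh1 was -0.14 in replicate 2 and 5.001 in replicate 1 on the log2 scale. Oxct1 was thus 32.0-fold above Bdh1 in replicate 1 and about level with it in replicate 2. In the second quantification the log2 ratio was 0.06 (replicate 2) and 5.48 (replicate 1). Ppara, the nuclear receptor that drives many of these genes in liver, was at 22.1 TPM (replicate 2) and 13.8 TPM (replicate 1), a library ratio of 0.81 (95% counting interval 0.71 to 0.91), short of 2-fold.

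**Figure D4:**
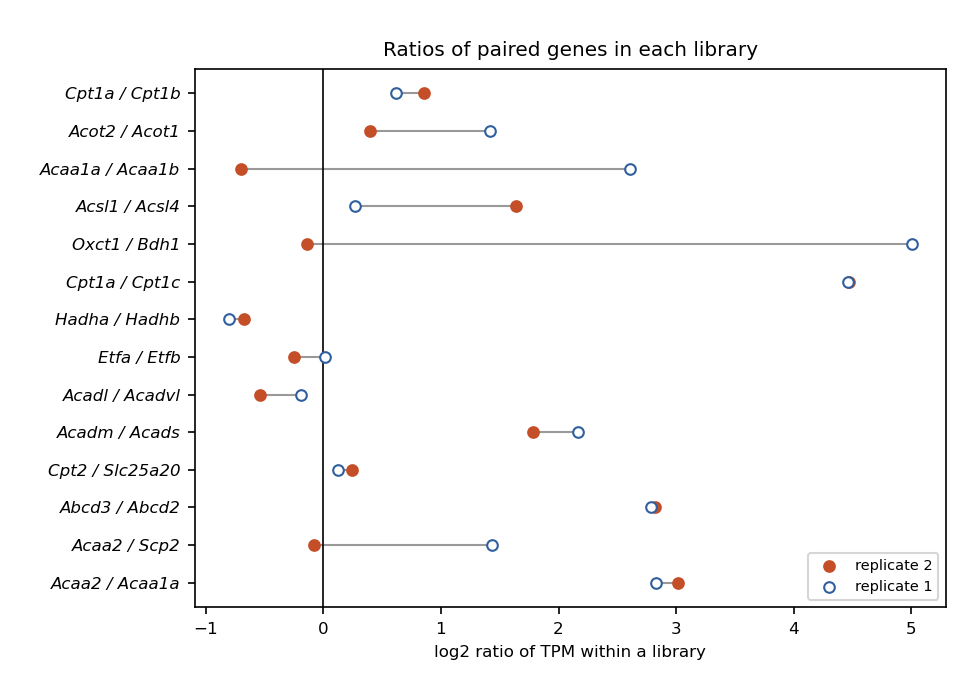
Log2 ratio of TPM of paired genes within each library, with replicate 2 filled and replicate 1 open. Ratios of Cpt1a to Cpt1c, Abcd3 to Abcd2 and Hadha to Hadhb nearly coincide in the 2 libraries, while those of Oxct1 to Bdh1 and Acaa1a to Acaa1b lie far apart, on either side of 0.

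Other genes of the pathway, taken from 6 lists, are given as counts at 2-fold, again beside the liver markers of replicate 2. Of the other peroxisomal genes 6 of 23 were higher by 2-fold or more in replicate 2 and 0 lower, against 10.2% and 3.93% of all genes tested, with a median log2 ratio of 0.21. The 6 were the catalase gene Cat at 452 TPM (replicate 2) and 135 TPM (replicate 1), the phytanic acid hydroxylase Phyh at 290.4 TPM (replicate 2) and 94.8 TPM (replicate 1), Nudt7 at 89.6 TPM (replicate 2) and 19.8 TPM (replicate 1), the lyase Hacl1 at 94.2 TPM (replicate 2) and 14.7 TPM (replicate 1), the reductase Pecr at 43.6 TPM (replicate 2) and 10.4 TPM (replicate 1) and the racemase Amacr at 18.8 TPM (replicate 2) and 9.24 TPM (replicate 1). All 14 peroxin genes of the list lay within 2-fold. Peroxins assemble the organelle and import its proteins. The enzyme gene Nudt19 was also within 2-fold, at 15.1 TPM (replicate 2) and 16.7 TPM (replicate 1).

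Fatty acid uptake and binding genes gave 3 of 14 higher and 1 lower, against 10.2% and 3.93% of all genes tested. Fabp1 is itself 1 of the 8 liver markers. The liver forms Fabp1, at 841 TPM (replicate 2) and 0.32 TPM (replicate 1), Slc27a5, at 103 TPM (replicate 2) and 0.07 TPM (replicate 1), and Slc27a2, at 146 TPM (replicate 2) and 9.93 TPM (replicate 1), were the higher ones. Fabp3, the muscle and heart form, was at 8.02 TPM (replicate 2) and 24.4 TPM (replicate 1), a log2 ratio of -1.38 (95% counting interval -1.62 to -1.14), and was lower beside the skeletal muscle markers. The fat cell form Fabp4, at 795 TPM (replicate 2) and 1107 TPM (replicate 1), the acyl-CoA binding protein Dbi, at 425 TPM (replicate 2) and 356 TPM (replicate 1), and the uptake receptor Cd36, at 135 TPM (replicate 2) and 192 TPM (replicate 1), did not reach 2-fold. Of the carnitine supply genes 1 of 7 was higher and 0 lower, close to the background. Bbox1, the last enzyme of carnitine synthesis, had 943 counts in replicate 2 and 0 in replicate 1. With the 0 set to a floor of 3 counts in that library it was 370.8-fold higher, a log2 ratio of 8.53. The 95% counting interval began lower, at 8.23, and had no upper end. Crat, the carnitine acetyltransferase, was at 43.3 TPM (replicate 2) and 66.6 TPM (replicate 1), Aldh9a1 at 35.6 TPM (replicate 2) and 22.8 TPM (replicate 1), the carnitine transporter Slc22a5 at 9.33 TPM (replicate 2) and 12.2 TPM (replicate 1) and Tmlhe at 6.07 TPM (replicate 2) and 6.54 TPM (replicate 1).

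Other acyl-CoA dehydrogenases and thioesterases gave 3 of 14 higher and 0 lower, beside 10.2% and 3.93% of all genes tested. Gcdh, of lysine breakdown, was the one with a mean above 5 TPM, at 77.0 TPM (replicate 2) and 19.1 TPM (replicate 1), while Acadsb, at 73.2 TPM (replicate 2) and 101 TPM (replicate 1), Ivd, at 76.5 TPM (replicate 2) and 87.6 TPM (replicate 1), and Acad11, at 44.7 TPM (replicate 2) and 32.0 TPM (replicate 1), did not reach 2-fold. Among PPAR targets and partners 4 of 16 were higher and 0 lower, beside the same background. These were Cyp4a10 at 25.3 TPM (replicate 2) and 0.2 TPM (replicate 1), Cyp4a14 at 32.0 TPM (replicate 2) and 0.32 TPM (replicate 1), Creb3l3 at 41.0 TPM (replicate 2) and 0.33 TPM (replicate 1) and the partner receptor Rxra at 44.0 TPM (replicate 2) and 15.2 TPM (replicate 1). Pdk4, which spares glucose when fat is burnt, was at 125 TPM (replicate 2) and 218 TPM (replicate 1), Plin2 at 109 TPM (replicate 2) and 112 TPM (replicate 1), Ucp2 at 66.9 TPM (replicate 2) and 86.1 TPM (replicate 1) and Acacb at 52.5 TPM (replicate 2) and 56.9 TPM (replicate 1), each within 2-fold. Other ketone body genes gave 4 of 8 higher and 0 lower, beside the same background, among them the transporter Slc16a7 at 8.79 TPM (replicate 2) and 3.86 TPM (replicate 1), while Slc16a1 was at 21.8 TPM (replicate 2) and 19.1 TPM (replicate 1) and Aacs at 24.1 TPM (replicate 2) and 30.7 TPM (replicate 1).

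**Figure D5:**
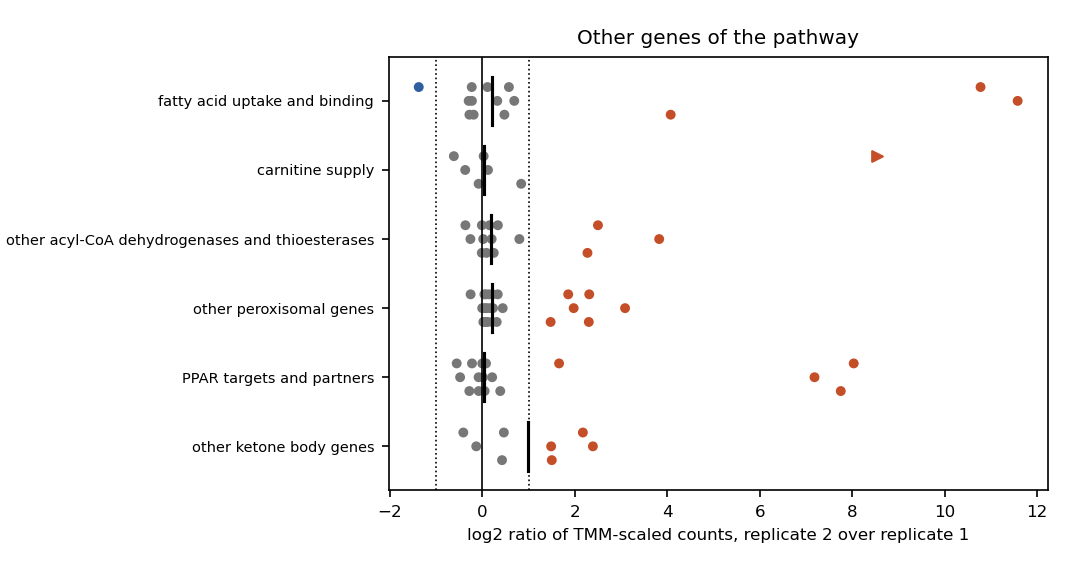
Library ratio, as log2 of TMM-scaled counts of replicate 2 over replicate 1, of each gene with at least 10 counts in 6 lists of the pathway, with a black bar at the list's median. The triangle is Bbox1, a lower bound against 0 counts. Medians lie within 2-fold in all 6 lists, and 1 gene, Fabp3, lies past the left dotted line.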

How the data were processed

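Total RNA-seq of 2 adrenal libraries was analysed from tables the authors deposited. In the first quantification, made from an alignment to the transcriptome, the deposited gene tables hold expected counts, TPM, FPKM (used in an alternative) and a posterior SD, per the file headers, and the transcript tables add the percent of TPM in a gene (IsoPct). The authors' second quantification, made directly from the reads, holds estimated counts with TPM. Deposited notes give mm10 with annotation M21 for both. The sources used here name neither the quantifiers nor any strand setting of the counting, though the library kit is directional. Nuclear protein-coding genes held 35.5% of the first quantification's TPM in replicate 2 and 32.8% in replicate 1. Replicate 2 held 35156690 and replicate 1 35283841 expected counts, of which 0.915% and 0.839% were spike-ins and 1.91e-05% and 2.27e-05% other entries that name no gene. Those stayed out of library sizes.

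Counts were rounded and scaled with TMM factors from edgeR 4.0.16 (0.923 and 1.08). A ratio was computed for genes of 10 or more counts over both libraries, with a 95% exact Clopper-Pearson interval, and a count of 0 was set to a floor of 3. Intervals and floors cover counting error only. The ratio was tested on simulated data. A gene was called at 2-fold. No p-values were computed, since 2 libraries of 1 group leave no residual degrees of freedom. Coordinates, overlaps and coding sequences come from GENCODE M21, and promoters from RefSeq, GRCm38.p6. Motifs were searched on both strands. In 17 of the 40 genes, exons overlap another gene, 4 of them on the same strand and 14 on the opposite one. Reads of opposite-strand overlaps cannot be told apart without a strand setting, and strand cannot separate those of same-strand overlaps. Members and lists were chosen with earlier results of these data known. All 40 members are named. Of each list the 4 highest genes and those 2-fold apart with a mean of at least 5 TPM are named, with some of these left unreported here.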

Additional observations from a re-analysis of the deposited data

How the results depend on the processing

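With a fold of 1.5 in place of 2 and TMM, 13 of 40 genes were higher in replicate 2 and 0 lower, against 10 higher and 4 lower with total counts and 8 higher and 7 lower with spike-in totals, both added after seeing the data. The 7 were Cpt1b, Acadl, Acadm, Acot2, Acsl3, Acsl4 and Oxct1. The 5 added to the higher ones with TMM were Acaa2, Hsd17b4, Acsl1, Acsl5 and Ppara. With total counts or spike-in totals 6 were 2-fold higher (backgrounds 8.62% and 7.88%), without Abcd2 and Abcd3, and with the second quantification 8 were (9.95%). The count stayed at 8 with no minimum of counts and with a minimum of 50. Under total counts and under spike-in totals the ratio of 10 genes changed sign: Cpt2, Acadvl, Acads, Hadh, Acox3, Eci1, Decr1, Etfa, Etfdh and Pex5. The second quantification moved the log2 ratio of Cpt1a over Cpt1b to 1.22. Of the pair ratios, Acaa1a over Acaa1b reversed to -0.70 without replicate 1 (range -0.70 to 2.61 over the replicates left out). Oxct1 over Bdh1 reversed to -0.14 without replicate 1 (range -0.14 to 5.001). In the second quantification the latter was 0.06 in replicate 2, so its order there depended on the quantification. The cause of these reversals was not tested. Leaving out each replicate gave a range of 1.40 to 3.14 for mitochondrial over peroxisomal genes and of 0.62 to 0.86 for Cpt1a over Cpt1b. The mitochondrial over peroxisomal ratio was 1.93 with the second quantification, 2.75 with class medians and 2.30 with other genes on each side. No paired analysis was possible because there is 1 group. Depth limits Acox2, with 8 counts in replicate 1, most, by the width of its counting interval.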

Other observations

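The 40 genes have 237 annotated transcripts. In the first quantification the leading transcript was the same in both libraries for 38 genes, with Acox2 and Scp2 as the exceptions. For Acox2 this rests on 8 expected counts in replicate 1, of which the leading Acox2-202 had 2.36, too few to rank transcripts. For 32 genes the leading transcript was the same in both libraries and both quantifications. Pex5 was led by Pex5-202 in the first, at 17.2 TPM (replicate 2) and 15.6 TPM (replicate 1), but that transcript was at 2.63 TPM (replicate 2) and 0.698 TPM (replicate 1) in the second, where Pex5-204 led. Hadhb was led by the coding transcript Hadhb-203, at 102 TPM (replicate 2) and 148 TPM (replicate 1), in the first and by the retained-intron transcript Hadhb-208, at 324 TPM (replicate 2) and 471 TPM (replicate 1), in the second. In Hadha the leading transcript in both was Hadha-201, annotated as a processed transcript, at 116 TPM (replicate 2) and 140.3 TPM (replicate 1) in the first, above the coding Hadha-205, at 40.4 TPM (replicate 2) and 55.2 TPM (replicate 1).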
